A study of Mus musculus with 9 samples.

Results

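The cyclooxygenase branch of arachidonic acid metabolism was examined through 10 genes: 2 cyclooxygenases (Ptgs1 and Ptgs2), the prostaglandin E synthases Ptges, Ptges2 and Ptges3, the prostaglandin D synthases Ptgds and Hpgds, the thromboxane synthase Tbxas1, and the prostaglandin E2 receptors Ptger2 and Ptger4. They were chosen by symbol, and all 10 are listed both in the table of sorted cells (16367 genes) and in the table of primary cultures (17035 genes). RNA sequencing was done on mouse cells prepared as Müller glia, the radial glia that span the retina, in 3 groups of 3 libraries.

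All mice had the genotype WT. Sham animals had a cut made in the cornea with a needle and received no oil. Ocular hypertension (OHT) animals had 1.2 µL of silicone oil put into the front chamber of each eye, which raises the pressure in the eye. For both groups 4 neural retinas were pooled per library, treated with papain, depleted of dead cells and passed over a magnetic column with an antibody to GLAST, a glutamate transporter that astrocytes carry as well as Müller glia. The third group, primary cultures, came from retinas of C57BL/6J pups aged 8 to 10 days, was grown in medium with serum on gelatin, was passaged, and had the treatment label None. Age, sex and time after the injection are not given for the sorted groups, and nothing says whether the cultures came from separate litters, so p-values measure only the spread between these libraries, which may be partly technical.

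Cyclooxygenases turn arachidonic acid, released from membranes by phospholipases, into the unstable intermediate prostaglandin H2. Terminal synthases then convert it to prostaglandin E2, prostaglandin D2, thromboxane A2 and others, which act on G protein-coupled receptors. Ptgs1 is regarded as the constitutive enzyme and Ptgs2 as the inducible one. In the retina and brain Ptgs1, Hpgds and Tbxas1 are known as genes of microglia, and prostaglandin analogues are in use as drugs that lower eye pressure.

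The labelled cell type was first set against marker lists. In the sorted libraries the Müller glia markers Glul and Rlbp1 were present, at 495 to 2088 ppm and 389 to 2090 ppm, where ppm is reads per 1e6 reads of the library. Microglia and macrophage genes were also abundant there: 11 of 12 listed genes were in the table, none was at 0, and they summed to 2.04% to 3.31% of the sham and 2.90% to 3.21% of the OHT reads. The 14 Müller glia genes summed to 0.444% to 1.05% and 0.239% to 0.500%. In the cultures the same microglia list summed to 0.00982% to 0.0152%. The Müller glia list summed to 0.349% to 0.431% there, inside the range of the sorted libraries, but its members went both ways. Rlbp1 was at 1.60 to 2.84 ppm and Glul at 24.9 to 48.2 ppm in the cultures, while Vim, which many cell types express, was at 2301 to 3318 ppm against 56.8 to 153 ppm in the sorted libraries. Prdx6 was at 650 to 747 ppm in the cultures, inside its sorted range of 270 to 947 ppm. The mural cell and fibroblast list reached 1.66% to 1.96% of the culture reads, led by Acta2 and Col1a1, against 0.0127% to 0.0266% in sham and 0.00101% to 0.00574% in OHT. Rod genes summed to 0.282% to 2.71% in sham and to 0.0950% to 0.361% in OHT, overlapping through sham replicate 1. Astrocyte genes, which a GLAST sort can also bring in, summed to 13.6 to 1318 ppm in sham and to 20.4 to 104 ppm in OHT. Depth was 37822145 to 44472124 reads in sham, 47135569 to 53592052 in OHT and 66309309 to 76745389 in the cultures, so OHT was sequenced deeper than sham without overlap. The part of these differences in the results below was not tested. In all groups, fewer cells of a type and less RNA per cell cannot be told apart.

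**Figure D1:**
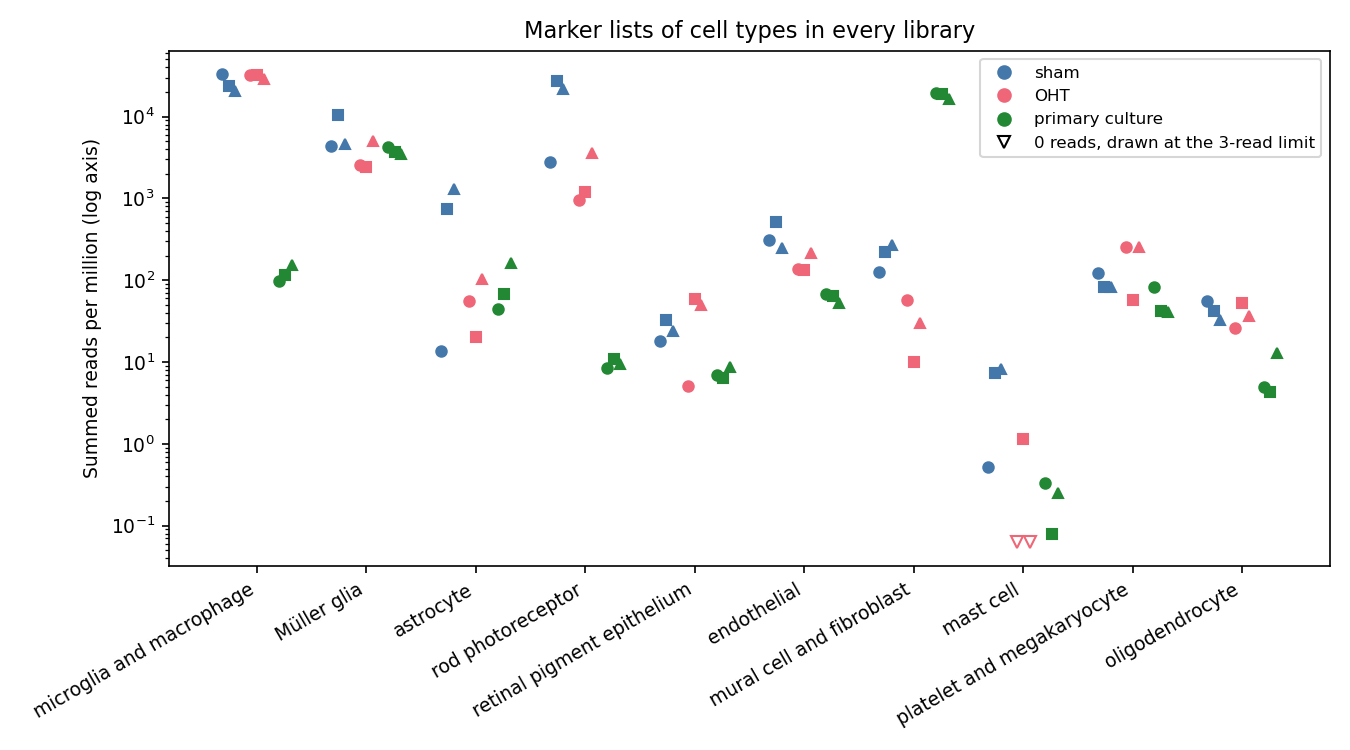
Summed level in ppm (log axis) of 10 cell type marker lists in each library. Points are libraries coloured by group, and open triangles mark sums of 0 drawn at the 3-read limit. Microglia and macrophage genes sum to 2.04% of the reads or more in every sorted library and to at most 152 ppm in the cultures.

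Promoters of 4 of the genes are shown. Levels of Hpgds, Tbxas1 and Ptgs2 set the sorted cells and the cultures apart, and Ptgs1 was high in both. Other genes of the 10 were set apart too and are not shown, among them Ptges, with a wider gap than Ptgs2. Each of the 4 held a match to the motifs given below, and Ptges held none. The sequences are RefSeq's for GRCm38.p6, from 250 bases before to 50 bases after the annotated start, 5′ to 3′ on the gene's strand; the expression files were made on mm39, and no coordinates were carried between the builds. All 10 genes had an entry. Capitals mark matches, on either strand, to 5 short motifs: GAGGAAGT (an ETS motif of the PU.1 type, PU.1 being a transcription factor of the myeloid lineage), TTGCGCAA (a C/EBP palindrome), the E-box CACGTG, which basic helix-loop-helix factors can bind, the sequence TGACGT that forms part of a cAMP response element, and the TATA box in the form TATAAA.
Ptgs1 promoter, chr2:36230176-36230475, plus strand: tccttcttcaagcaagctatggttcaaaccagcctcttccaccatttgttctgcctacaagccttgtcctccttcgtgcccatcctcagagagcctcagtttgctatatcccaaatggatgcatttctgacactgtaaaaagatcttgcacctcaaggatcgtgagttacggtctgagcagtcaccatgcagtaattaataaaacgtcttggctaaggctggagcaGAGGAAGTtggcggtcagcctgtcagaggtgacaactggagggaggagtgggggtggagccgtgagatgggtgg
Hpgds promoter, chr6:65144681-65144980, minus strand: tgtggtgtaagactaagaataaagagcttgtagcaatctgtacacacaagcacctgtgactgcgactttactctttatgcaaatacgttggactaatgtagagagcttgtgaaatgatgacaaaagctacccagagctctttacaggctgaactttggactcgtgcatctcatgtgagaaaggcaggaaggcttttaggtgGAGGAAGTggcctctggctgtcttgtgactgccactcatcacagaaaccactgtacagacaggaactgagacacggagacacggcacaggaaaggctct
Tbxas1 promoter, chr6:38918736-38919035, plus strand: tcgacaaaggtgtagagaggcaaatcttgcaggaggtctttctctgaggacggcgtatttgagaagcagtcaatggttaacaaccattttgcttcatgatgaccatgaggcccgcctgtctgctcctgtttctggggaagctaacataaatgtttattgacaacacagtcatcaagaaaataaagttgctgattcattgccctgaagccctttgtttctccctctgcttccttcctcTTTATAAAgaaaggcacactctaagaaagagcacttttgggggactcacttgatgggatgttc
Ptgs2 promoter, chr1:150099781-150100080, plus strand: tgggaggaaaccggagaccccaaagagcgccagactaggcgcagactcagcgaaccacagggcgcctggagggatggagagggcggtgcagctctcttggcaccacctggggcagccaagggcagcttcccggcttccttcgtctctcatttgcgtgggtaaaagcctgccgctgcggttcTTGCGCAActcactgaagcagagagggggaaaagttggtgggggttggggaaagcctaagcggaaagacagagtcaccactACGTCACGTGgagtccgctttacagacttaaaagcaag

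GAGGAAGT occurred in the promoters of Ptgs1 and Hpgds, beginning 24 and 49 bases before the start, and in 3.203% of all 32817 promoters of the same length. TTGCGCAA occurred in Ptgs2 alone among the 10, 69 bases before the start, and in 0.183% of all promoters. Ptgs2 also held ACGTCA, the reverse complement of TGACGT, and CACGTG, which overlap each other in the run ACGTCACGTG just after its annotated start. Annotated starts were not checked against mapped ones, so all these positions hold for the annotation only. TGACGT was in 7.505% and CACGTG in 7.149% of all promoters, and Ptges2 held the latter too. TATAAA was found in Tbxas1, on both strands with an overlap, beginning 13 and 11 bases before the start, and in 13.621% of all promoters. These matches describe letters and are not evidence of binding.

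The central comparison asked whether transcripts of the branch differed between sorted cells of OHT and sham eyes. Values are normalised read counts, that is reads divided by 1 factor per library. Log2 differences are OHT minus sham on the log2(value + 1) scale. For low genes the added 1 can understate a change, and a library at 0 can enlarge it. The filter, a mean of 10 or more in the sorted libraries, kept all 10 genes. With limma and Benjamini-Hochberg adjustment over 14403 genes, 0 of the 10 passed an adjusted p of 0.05, as did 0 of all genes (0%). Without adjustment, 2 of the 10, Hpgds and Ptgds, had a p under 0.05, beside 11.7% of all genes. edgeR on reads recovered from the values and DESeq2 also called 0 of the 10, each with 2 at an unadjusted p under 0.05, beside 10.9% of all genes with edgeR and 14.1% with DESeq2. DESeq2 called 250 of all genes. The median log2 difference of the 10 genes was 0.74, with 7 above and 3 below 0, against -0.12 over all genes, of which 45.2% were above 0. Among the 7, Ptges and Ptger2 were low, and each was at 0 in 1 sham library. Quantile normalization put the median of all genes at 0.01 and TMM factors put it at -0.19.

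**Figure D2:**
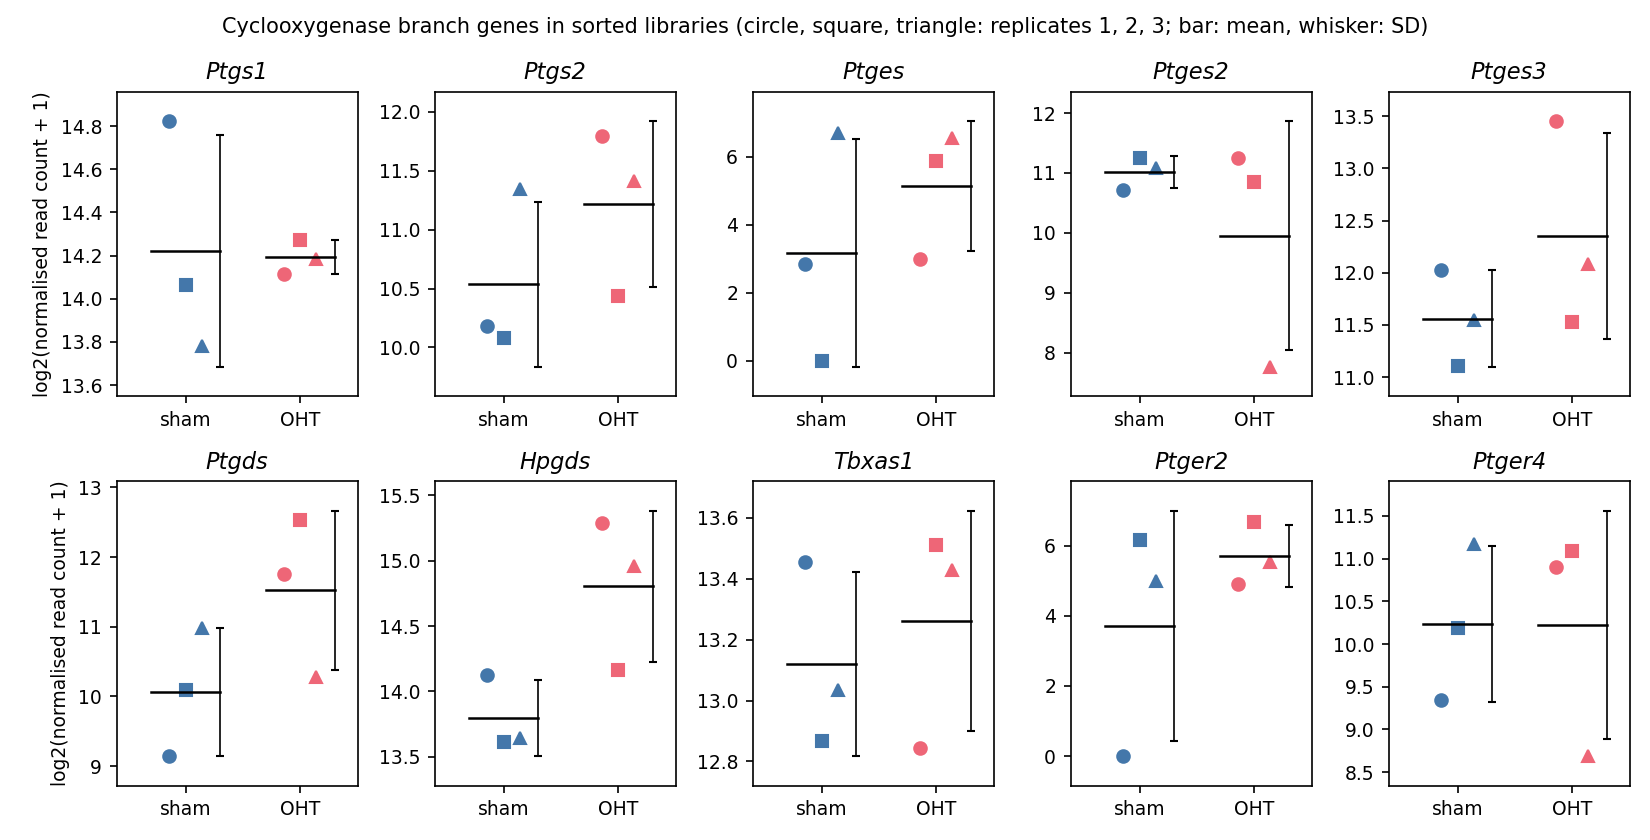
Normalised read counts of the 10 genes in the 6 sorted libraries, as log2(value + 1), with an axis range of its own for each gene. Symbols are libraries, black bars the group means and whiskers the SD (n = 3). On this scale only Hpgds has all 3 OHT libraries above all 3 sham libraries.

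Of the cyclooxygenases, Ptgs1 was at 28964, 17119 and 14078 normalised counts in sham replicates 1, 2 and 3 and at 17754, 19798 and 18646 in OHT. Sham replicate 1 was the highest, and the OHT libraries, which spanned 1.12-fold, all lay inside the sham range. On the log2 scale OHT minus sham was -0.03 (SE 0.35, 95% interval -0.79 to 0.73, limma adjusted p 0.977). Its sign rested on single libraries: it was 0.27 without sham replicate 1 and 0.01 without OHT replicate 1. Ptgs2 was at 1163, 1079 and 2593 in sham and at 3561, 1387 and 2731 in OHT. OHT replicates 1 and 3 were above every sham library, and OHT replicate 2 fell below sham replicate 3. The fitted log2 difference was 0.68 (SE 0.48, 95% interval -0.37 to 1.74, limma adjusted p 0.566).

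The balance of both enzymes was read per kb of transcript, since only then can levels of genes be compared. Ptgs1 exceeded Ptgs2 by 38.7-, 24.6- and 8.43-fold in sham and by 7.74-, 22.2- and 10.6-fold in OHT. Ptgs1 was therefore the more abundant of the pair in every sorted library, and the ranges of the ratio overlapped between the groups. Ptgs2os, a non-coding RNA that starts near Ptgs2 on the other strand, was at 0 to 0.47 ppm in the sorted libraries. Whether reads were assigned by strand is not given in the sources used here.

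Hpgds, the hematopoietic prostaglandin D synthase, a glutathione-dependent enzyme of immune cells, was at 17897, 12495 and 12794 in sham and at 39958, 18317 and 31936 in OHT. The groups did not overlap, which held for 1 of the 10 genes in this direction and for 9.26% of all genes. The estimate on the log2 scale was 1.01 (SE 0.37, 95% interval 0.21 to 1.81, limma adjusted p 0.363), a fitted 2.01-fold. OHT replicate 2 lay close to sham replicate 1. On the ppm scale, chosen after seeing the data, they changed places: Hpgds was at 458, 318 and 301 ppm in sham and at 607, 415 and 845 ppm in OHT. The groups also overlapped with TMM factors and after quantile normalization. In ppm, 0 of the 10 genes had all OHT libraries higher, beside 5.44% of all genes. Over 16 alternatives the log2 difference ran from 0.59 after quantile normalization to 1.33 without OHT replicate 2, and the adjusted p from 0.170 with DESeq2 to 0.906 with limma without sham replicate 2.

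Beside Hpgds, 9 of 11 tested microglia and macrophage genes had a log2 difference above 0, as did 45.2% of all genes, and their median was 0.39. In the higher direction 5 of the 11 did not overlap between the groups, beside 9.26% of all genes. None of them passed the adjusted threshold in limma. Of other lists, 13 of 14 Müller glia, 12 of 12 rod, 6 of 6 astrocyte and 9 of 9 endothelial genes were below 0. Their medians were -0.75, -2.31, -2.32 and -1.35. Mural cells and fibroblasts had 8 of 9 tested genes below 0 (median -1.66), and platelets and megakaryocytes 4 of 5 (median -0.24). The platelet and megakaryocyte list nevertheless summed to 121, 83.1 and 82.6 ppm in sham and to 252, 58.0 and 256 ppm in OHT. Pigment epithelium had 5 of 9 genes above 0 and oligodendrocytes 2 of 3. Mast cells are another known source of Hpgds: of 6 mast cell markers Cpa3 and Kit were listed for the sorted cells, and Cpa3 was at 0 in 4 of the 6 libraries and at 0.30 ppm or less in the others. Kit, which other cells express too, was at 0.53, 7.27 and 8.14 ppm in sham and at 0, 0.86 and 0 ppm in OHT. Its log2 difference was -5.25 (limma adjusted p 0.343). The part of any of these cell types in the Hpgds difference was not tested.

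Ptgds, the lipocalin-type prostaglandin D synthase, which is secreted and also binds small lipophilic molecules, was at 564, 1087 and 2015 in sham and at 3456, 5923 and 1246 in OHT. OHT replicates 1 and 2 were above all sham libraries, and OHT replicate 3 fell among them. OHT minus sham came to 1.46 (SE 0.61, 95% interval 0.12 to 2.79, limma adjusted p 0.400). It was 0.95 without OHT replicate 2 and 2.07 without OHT replicate 3. Pigment epithelium, a known source of Ptgds that was removed in dissection, was represented by 9 listed markers that summed to 18.2 to 32.7 ppm in sham and to 5.04, 59.1 and 50.2 ppm in OHT replicates 1, 2 and 3. In OHT replicate 2, which had the most Ptgds, Tyrp1 was at 22.1 ppm and Mlana at 16.6 ppm, against at most 2.52 and 0.79 ppm in the other sorted libraries. Other markers of the list were not highest there: Rpe65 was at 0.19 ppm, Lrat at 0, Ttr at 0.11 ppm, Rgr at 2.46 ppm and Best1 at 11.6 ppm in that library. All 5 were highest in OHT replicate 3, where Ptgds was the lowest of the OHT libraries, with Rgr and Best1 both at 21.0 ppm. The part of this in the Ptgds value was not tested.

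Tbxas1, which makes thromboxane A2 from prostaglandin H2, was at 11220, 7476 and 8390 in sham and at 7356, 11657 and 11024 in OHT. OHT replicate 1 was the lowest of the 6 libraries, and the groups interleaved. The log2 difference was 0.14 (SE 0.33, 95% interval -0.58 to 0.87, limma adjusted p 0.867) and it changed sign, to -0.22, after quantile normalization.

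Among prostaglandin E synthases, Ptges encodes the microsomal enzyme that is induced together with Ptgs2 in inflammation. It was low and uneven, at 6.20, 0 and 102 in sham and at 6.91, 57.6 and 93.8 in OHT. Sham replicate 2 had 0 reads, which allows up to 0.0703 ppm, and the groups overlapped. The fitted log2 difference was 1.96 with an SE of 1.83 (95% interval -2.05 to 5.97, limma adjusted p 0.660). It was 0.37 without sham replicate 2, the library at 0, and 3.72 without sham replicate 3. With edgeR it was 0.47 and with DESeq2 0.55, so the limma estimate is not a cautious one.

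Ptges2, a membrane-associated synthase, was at 1690, 2432 and 2168 in sham and at 2432, 1841 and 216 in OHT. OHT replicate 3 stood alone, 11.2-fold below OHT replicate 1. The estimate on the log2 scale was -1.07 (SE 0.75, 95% interval -2.72 to 0.58, limma adjusted p 0.566) and was 0.03 without that library. The groups overlapped on the deposited scale, where 0 of the 10 genes and 9.18% of all genes had all OHT libraries lower. In ppm Ptges2 was the 1 gene of the 10 with all OHT libraries lower, at 43.3, 61.8 and 51.0 against 37.0, 41.7 and 5.73, beside 11.4% of all genes. With TMM factors and after quantile normalization its groups overlapped.

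Ptges3, the cytosolic synthase also known as the HSP90 co-chaperone p23, was at 4173, 2196 and 2997 in sham and at 11184, 2949 and 4332 in OHT. OHT replicate 1 exceeded every other library, and OHT replicate 2 lay inside the sham range. OHT minus sham came to 0.79 (SE 0.48, 95% interval -0.27 to 1.85, limma adjusted p 0.521), and 0.24 without OHT replicate 1. A processed copy of the gene, Ptges3-ps, was listed at 301 to 648 in sham and 338 to 1318 in OHT, highest in OHT replicate 1 as well. How reads shared by the pair were counted is not known, so the level of Ptges3 is uncertain to that extent.

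The receptor genes differed in level. Ptger4, which encodes the EP4 receptor, coupled to cAMP, was at 650, 1166 and 2294 in sham and at 1907, 2178 and 411 in OHT. OHT replicate 3 was the lowest and sham replicate 3 the highest of the 6. On the log2 scale OHT minus sham was -0.01 (SE 0.67, 95% interval -1.48 to 1.46, limma adjusted p 0.997), with 0.46 without sham replicate 3 and 0.76 without OHT replicate 3. Ptger2, which encodes EP2, also coupled to cAMP, was at 0, 71.0 and 30.6 in sham and at 29.0, 100 and 45.7 in OHT. Sham replicate 1 had 0 reads, which allows up to 0.0793 ppm. The log2 difference was 1.99 with an SE of 1.64 (95% interval -1.62 to 5.59, limma adjusted p 0.615), and 0.13 without that library. It was 0.72 with edgeR and 0.79 with DESeq2. Per kb, Ptger4 exceeded Ptger2 in the 5 sorted libraries where Ptger2 was above 0, by 8.79- to 73.2-fold.

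**Figure D3:**
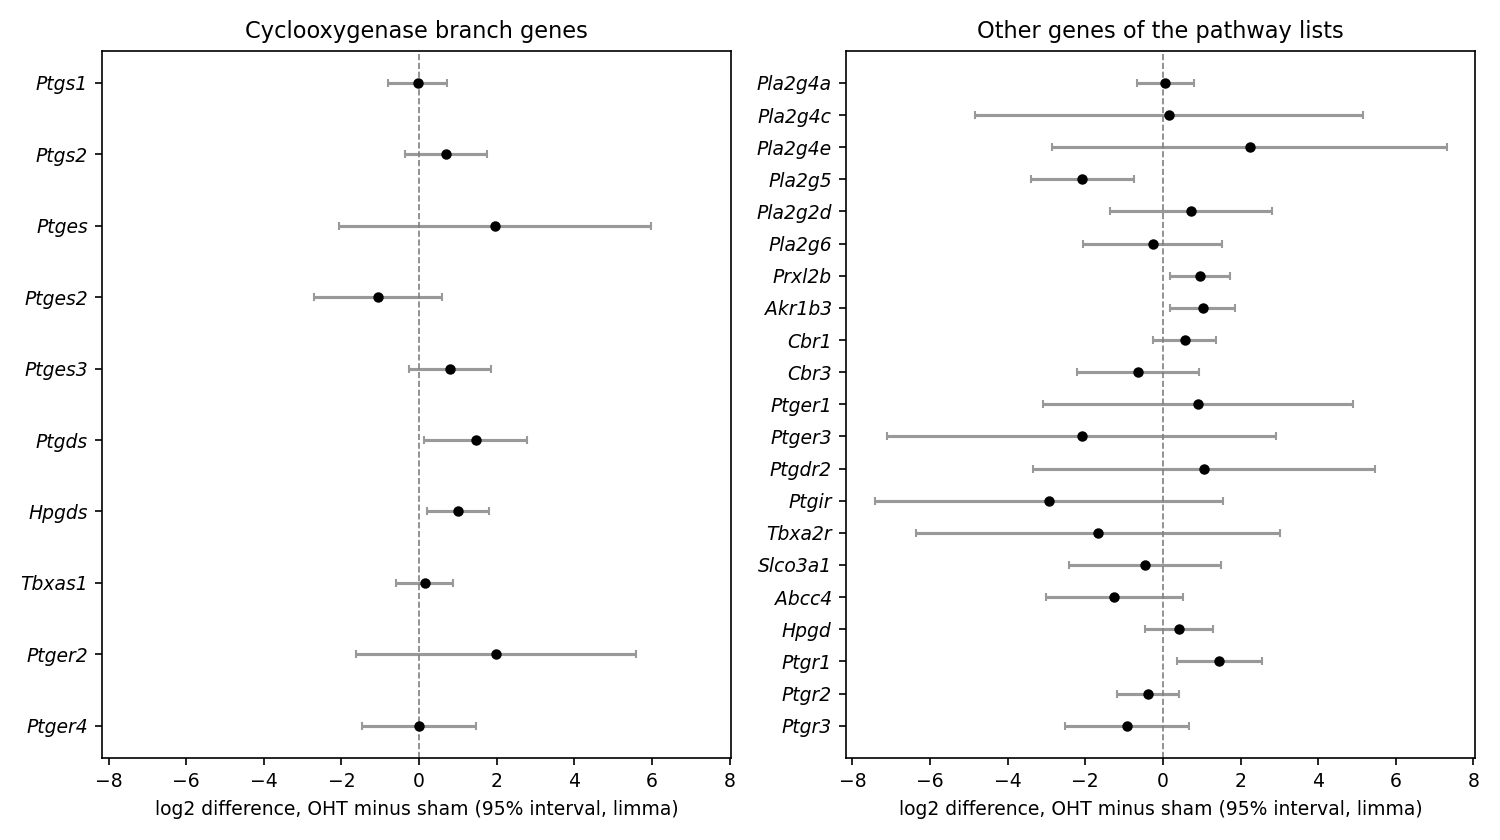
Log2 difference, OHT minus sham, with its 95% interval from limma (horizontal axis) for the 10 genes (left) and for 21 other tested genes of the pathway (right). The intervals of Hpgds and Ptgds lie above 0 before adjustment, and those of Ptges and Ptger2, each at 0 in 1 sham library, are the widest on the left.

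Other genes of the pathway were described by lists of phospholipases, further synthases, receptors, transporters and breakdown enzymes. Of 29 genes 25 were in the sorted table and 21 were tested, with 11 above and 10 below 0 and a median log2 difference of 0.06. None passed the adjusted threshold in limma, with the lowest adjusted value at 0.332 (Pla2g5). Without adjustment 3 genes higher and 1 lower had a p under 0.05, beside the 11.7% of all genes given above. Groups without overlap were found for 6 of the 21, 4 higher and 2 lower, beside 18.4% of all genes in either direction. In ppm they were found for 3 of the 21 higher and 2 lower, beside 5.44% of all genes higher and 11.4% lower.

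Pla2g5, a secreted phospholipase, had the largest difference of these 6, at 917, 3538 and 2622 in sham and 247, 771 and 583 in OHT. Every OHT library was below every sham library, also in ppm and with TMM factors. The estimate on the log2 scale was -2.08 (SE 0.61, limma adjusted p 0.332). DESeq2 alone of the 16 alternatives called it, with an adjusted p of 0.0262, and the highest adjusted p was 0.906 without sham replicate 2.

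Ptgr1, a reductase that inactivates prostaglandins and leukotriene B4, was at 412, 409 and 470 in sham and at 1912, 1122 and 756 in OHT, a log2 difference of 1.45 (SE 0.50, limma adjusted p 0.343). Akr1b3, an aldose reductase with prostaglandin F synthase activity, was at 3207 ± 764 and 6732 ± 2744 (SD, n = 3; limma adjusted p 0.365). Prxl2b, a prostamide and prostaglandin F synthase, was at 1821 ± 263 and 3567 ± 771 (limma adjusted p 0.365). Cbr1, a carbonyl reductase, was higher in all 3 OHT libraries as well (log2 difference 0.56, SE 0.37, limma adjusted p 0.544), but not in ppm. Ptgr2, another prostaglandin reductase, was lower in all 3 (-0.39, SE 0.36, limma adjusted p 0.660).

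Pla2g4a, the cytosolic phospholipase that supplies arachidonic acid to cyclooxygenases, was at 4230, 3019 and 2929 in sham and at 3125, 4096 and 3305 in OHT, with interleaved groups. Hpgd, which oxidises and inactivates prostaglandins, was at 5326 ± 1963 and 7122 ± 2983 (SD, n = 3; limma adjusted p 0.675). Of the 7 other receptor genes, Ptgdr was in neither table, and the 6 listed ones had at most 80.4 normalised counts in any sorted library.

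The patterns most like those of 4 of the genes over the 6 sorted libraries were sought among the 11532 genes whose mean was 100 or more. The measure was Pearson's r of log2(value + 1), given as a description. Ptgs1 was most like Cx3cr1 (r = 0.97), Plxdc2 (0.97) and Golm1 (0.97). Cx3cr1, the fractalkine receptor, is a microglial marker. Hpgds was most like Mrps36, As3mt and Ndufs5 (0.99 to 1.00), Ptgs2 most like Iigp1c, Adamdec1 and Hagh (0.98, 0.98 and 0.97), and Ptgds most like Tmem86a, Myo18a and Galns (0.98, 0.98 and 0.96). These are the highest of 11532 values over 6 points, and the libraries share depth and cell make-up.

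The cultures were compared with the sorted cells in ppm only, without a test, since the tables were normalised separately. The 10 genes summed to 1146, 1154 and 1433 ppm in the cultures and to 1115 to 1871 ppm in the sorted libraries. Ptges3 alone gave 291 to 458 ppm of the culture sums, against 55.8 to 170 ppm in the sorted libraries. Other genes of the pathway are outside these sums. Ranges of 8 of the 10 genes did not overlap between the 3 cultures and the 6 sorted libraries. Ptgs2, Ptges and Ptges3 were higher in the cultures, 3 of 10 beside 32.5% of the 15438 genes listed in both tables. Hpgds, Tbxas1, Ptges2, Ptger4 and Ptgds were lower, 5 of 10 beside 16.5%. Ptgs1 and Ptger2 overlapped.

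**Figure D4:**
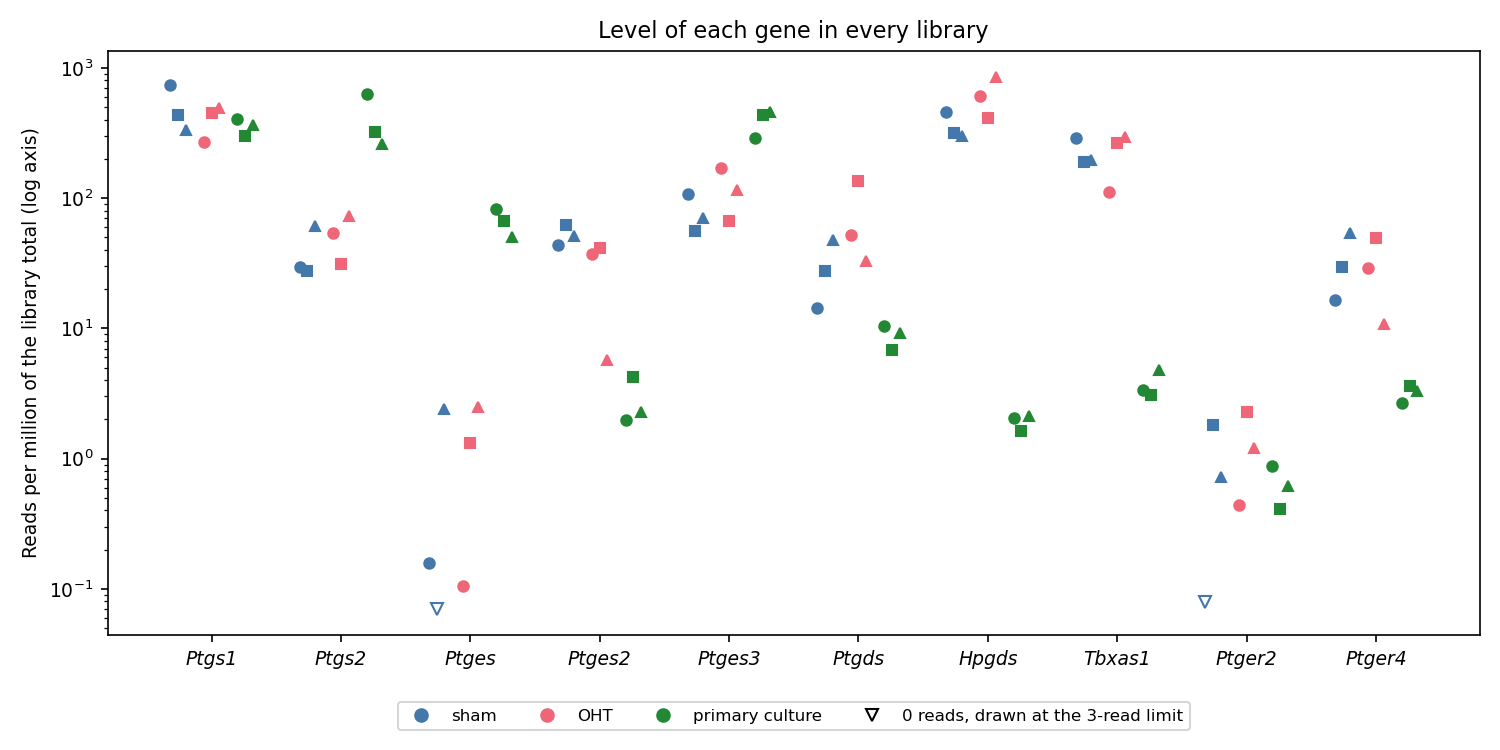
Level in ppm of the library total (log axis) for each of the 10 genes in the 9 libraries. Points are libraries coloured by group, and open triangles mark 0 reads drawn at the 3-read limit. The cultures lie far below the sorted libraries for Hpgds and Tbxas1 and above them for Ptgs2, Ptges and Ptges3.

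Ptgs1 was at 403, 301 and 363 ppm in culture replicates 1, 2 and 3, inside the sorted range of 270 to 741 ppm, while the microglia genes were at the low levels given above. Ptgs2 was at 635, 323 and 260 ppm, so that the lowest culture was 3.60-fold above the highest sorted library, at 72.3 ppm. Replicate 1 was the highest culture, and without it the culture mean of 406 ± 201 ppm (SD, n = 3) was 291 ppm. The per-kb ratio of Ptgs1 to Ptgs2, at 8.43 or more in 5 sorted libraries and 7.74 in OHT replicate 1, was 0.99, 1.45 and 2.17 in the cultures.

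Non-coding neighbours of Ptgs2 were also higher in the cultures. Ptgs2os was at 31.0, 22.4 and 25.2 ppm in the cultures and at most 0.47 ppm in the sorted cells, and Ptgs2os2, also called lincRNA-Cox2, was at 14.0 to 16.1 ppm against at most 3.42 ppm. In the sorted cells Ptgs2os2 was low, at 15.5, 3.69 and 9.57 normalised counts in sham and at 26.3, 21.4 and 129 in OHT. The groups did not overlap, as for 9.26% of all genes in this direction, and OHT replicate 3 was far the highest. In ppm sham replicate 1, at 0.397, lay just below OHT replicate 1, at 0.399. The fitted log2 difference was 2.2 (SE 1.36, limma adjusted p 0.526). In RefSeq's GRCm38.p6 annotation 156 bases lie between Ptgs2os and Ptgs2, so their transcripts do not overlap.

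Ptges was at 82.3, 67.2 and 50.2 ppm in the cultures, and the lowest of these was 20.2-fold above the highest sorted library, at 2.48 ppm. Ptges3 was at 291, 435 and 458 ppm against 55.8 to 170 ppm, a gap of 1.71-fold between the nearest libraries. Ptges2 was at 1.98 to 4.22 ppm in the cultures. The lowest sorted library, OHT replicate 3, was 1.36-fold above them, and the sorted median of 42.5 ppm was 18.6-fold above the culture median.

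Hpgds had the widest gap of the 10. It was at 1.63 to 2.14 ppm in the cultures, from 123 to 164 reads per library, and the lowest sorted library was 141-fold above the highest culture. Tbxas1 was at 3.09 to 4.76 ppm, 23.5-fold below the lowest sorted library. Ptgds was at 6.83 to 10.4 ppm and Ptger4 at 2.67 to 3.62 ppm, with gaps of 1.39- and 3.00-fold. Microglia markers differed the same way, with Cx3cr1 at 0.41 to 1.30 ppm in the cultures against 1001 to 2325 ppm in the sorted libraries. The part of the cell make-up in these gaps was not tested.

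Per kb of the principal transcript, Ptgs1 was 27.0% to 41.4% of the 10 genes' sum in sham, followed by Tbxas1 at 22.5% to 23.2% and Hpgds at 20.2% to 21.5%. In OHT Hpgds was at 35.2%, 19.2% and 35.9% and Ptgs1 at 19.0%, 25.2% and 25.4% in replicates 1, 2 and 3, so that no order held in all 3 libraries. In the cultures Ptges3 was at 31.2% to 51.7%, Ptgs1 at 24.7% to 30.1%, Ptgs2 at 13.2% to 30.6% and Ptges at 3.11% to 4.84%, while Hpgds was at 0.11% to 0.14%. Culture replicate 1 held nearly equal parts of Ptges3, Ptgs2 and Ptgs1. Taking the length of all annotated exons instead, a choice made after seeing the data, lowered Tbxas1 to 8.45% to 8.80% in sham. Ptgs1 stayed first by its median there, Hpgds moved ahead of Tbxas1, and Ptges3, at 10.2% to 13.1%, also came above it.

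**Figure D5:**
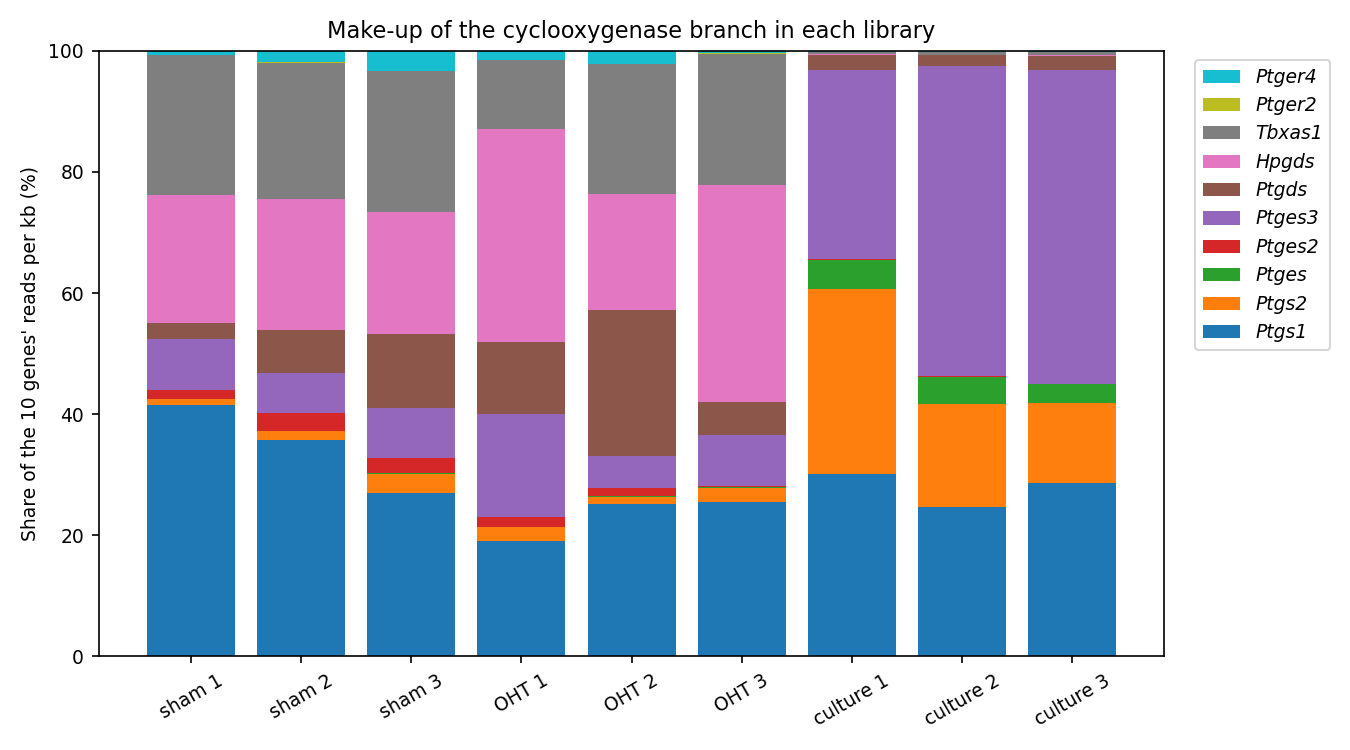
Share of the 10 genes' reads per kb (vertical axis, %) taken by each gene, as stacked bars from 0 to 100, for each of the 9 libraries. Ptgs1, Hpgds and Tbxas1 fill most of the sham bars, and Ptges3, Ptgs1 and Ptgs2 most of the culture bars.

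Some other genes of the pathway also differed between cultures and sorted cells, and those named next were picked for their gaps. Over all genes, ranges did not overlap for 32.5% higher and 16.5% lower in the cultures. Several pathway genes did overlap, among them Akr1b3, Cbr3, Ptgr2, Ptger1, Ptgdr2 and Ptgir. Cbr1 overlapped as well, at 40.6 to 55.7 ppm in the cultures against 39.2 to 64.7 ppm. Pla2g4a was at 641 to 671 ppm in the cultures against 47.5 to 108 ppm, and Ptgr1 at 65.0 to 81.9 ppm against 10.4 to 29.1 ppm. Ptgis, the prostacyclin synthase, was at 7.16 to 9.62 ppm against at most 0.13 ppm, and Ptgfr, the prostaglandin F receptor, at 3.33 to 4.80 ppm against at most 0.08 ppm. Slco2a1, a prostaglandin importer, was at 46.4 to 56.4 ppm in the cultures and was not listed for the sorted cells. In the other direction, Hpgd was at 0.34 to 0.42 ppm in the cultures against 80.9 to 188 ppm, and Pla2g5 at 0.38 to 0.69 ppm against 3.76 to 89.9 ppm.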

How the data were processed

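RNA was measured in 9 libraries (3 sham, 3 OHT, 3 primary cultures), from amplified low-input cDNA, for which the labels mention no molecular identifiers, sequenced in pairs of 150 bp. Per the submitters' processing notes, bcl2fastq 2.20, Trim Galore 0.6.6, FastQC 0.11.9, STAR 2.7.1a and the build mm39 were used. The sources used here name no counting program, annotation or normalization tool. The deposited signal is, from the values, gene counts that the authors divided by 1 factor per library and did not scale to length. Division by each library's step gave whole reads for 100% of values (tolerance 0.05 reads) in every library; the step of culture replicate 3 is too close to 1 to show this. Levels in ppm use each library's total. Limits for 0 reads are 3 reads, and they cover counting error only. No replicate pair agreed within sampling noise (chi-square per gene 51.2 or more).

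Groups came from the labels. OHT and sham were compared with limma 3.58.1 (R 4.3.3, lmFit, eBayes with trend, no covariate) on log2(value + 1), with a mean of at least 10 and Benjamini-Hochberg adjustment. Alternatives used edgeR 4.0.16 (quasi-likelihood), DESeq2 1.42.0 and other settings given at the end. The script was tested on simulated data, in which 200 genes were changed. At a log2 change of 2, limma recovered 28% of them, with 4 unchanged genes among 60 calls. DESeq2 recovered 55%, with 59 unchanged genes among 169 calls. Changes of that size can therefore be missed by limma, and calls by DESeq2 can hold unchanged genes. The genes named were the 10 genes, the pathway genes whose groups did not overlap, markers at 0 and the 3 most alike genes for 4 of the 10; other genes with values (among them Pla2g4a, Hpgd, Slco2a1, Ptgis, Ptgfr, Tyrp1, Mlana, Kit, Vim, Ptgs2os, Ptgs2os2 and Ptges3-ps) were chosen after their values were seen. The genes and lists were chosen with earlier results of these data known. Transcript lengths are GENCODE M21's (GRCm38), for the longest principal transcript of each gene. Python 3.11.15, pandas 2.3.3 and matplotlib 3.10.9 were used.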

Additional observations from a re-analysis of the deposited data

How the results depend on the processing

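The count of genes called between OHT and sham was 0 and changed most with the tool: DESeq2 called 250 genes, 54 higher and 196 lower, and left 510 without an adjusted p. Leaving out 1 library gave 0 to 17 calls, 12 without sham replicate 1 and 17 without sham replicate 3. The count among the 10 genes was 0 in every one of the 16 alternatives. A replicate block gave 2 genes; the numbers are not shown to pair libraries, since deviations of same-numbered libraries had r of 0.08, -0.02 and -0.05 across genes and 2 of the 3 sham libraries were more alike to another number. Of the log2 differences of 16 genes under the alternatives, 245 values kept their sign and side of the threshold, 1 passed it (Pla2g5 with DESeq2) and 8 changed sign. These were Ptger4 with edgeR (0.045) and DESeq2 (0.13), Tbxas1 after quantile normalization (-0.22), and leaving out 1 library for Ptgs1 (range -0.25 to 0.27), Ptges2 (-1.71 to 0.029, without OHT replicate 3) and Ptger4 (-0.45 to 0.76); the cause was not tested. Ptges and Ptger2 have no value at a mean of at least 100. Leaving the 20 highest genes out of the totals moved 5 of the 30 group levels by more than 1 SD, upward in each. With 3 libraries a group, an exact permutation test cannot go below 0.1.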
